A study of Rattus norvegicus with 3 samples.

Results

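Expression of 10 genes of the smooth muscle contractile apparatus was followed in the rat common carotid artery after balloon injury. They are the smooth muscle actins Acta2 and Actg2, the myosin heavy chain Myh11, its regulatory light chain Myl9, the myosin light chain kinase Mylk, the calponin Cnn1, the transgelin Tagln, the caldesmon Cald1 and the tropomyosins Tpm1 and Tpm2. A probe was assigned to one of these genes when the sequence accession written for it in the scanner output belonged to that gene. The groups were 1 male Wistar rat artery 7 days after balloon injury, 1 taken 21 days after balloon injury and 1 uninjured artery, each whole artery on its own one-colour array. No group had a replicate array, so every difference is between 2 arrays, no test was possible and no p-value is given. The series' design text describes independent experiments with different rats at each time, while the series holds 3 arrays, 1 per group.

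The day 21 and uninjured arrays shared a design and a scan and carried 16 probes for 9 of the 10 genes among 41012 gene probes. Day 7 was measured on a different design, scanned separately with later software, which carried 15 probes for all 10 genes among 30367 gene probes. The designs shared 5 probes of these genes, 1 each for Cnn1, Tagln, Tpm1, Tpm2 and Myl9. Day 7 could therefore be compared for 5 genes and day 21 for 9, while Acta2 was present on the day 7 array only. Between 59.8% (uninjured) and 76.6% (day 7) of the gene probes were well above background, and no spot was saturated. Day 7 and array design, scan and software cannot be told apart in these data.

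In smooth muscle, myosin pulls on actin filaments anchored at dense bodies, and contraction starts when calcium and calmodulin activate myosin light chain kinase, which phosphorylates the regulatory light chain. Tropomyosin, calponin and caldesmon lie along the actin filament and modulate its contact with myosin, and transgelin bundles actin. Medial smooth muscle cells of an artery express this set at high level, and it is widely used to mark their differentiated, contractile state. Many of these genes are known targets of serum response factor and its coactivator myocardin, which act at the CArG box, a motif with CC at one end, GG at the other and A or T between them.

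Promoter sequences of RefSeq on GRCr8 were at hand for 7 of the 10 genes, with 8 promoters in all, and not for Tagln, Myh11 and Myl9. Those of Actg2, Mylk and Cald1 were searched but are not printed. The 4 shown come from smooth muscle actin, calponin and tropomyosin genes, which are studied as targets of this control. The first is Acta2, the 250 bases before the gene start at chr1:241172504-241172753 on the minus strand. The others are the 150 bases before the start of Tpm2 at chr5:62575727-62575876 on the minus strand, of Cnn1 at chr8:28908287-28908436 on the plus strand and of Tpm1 at chr8:76543416-76543565 on the minus strand. Capitals mark matches to the CArG box with at least 5 of its 6 inner bases A or T.
Acta2: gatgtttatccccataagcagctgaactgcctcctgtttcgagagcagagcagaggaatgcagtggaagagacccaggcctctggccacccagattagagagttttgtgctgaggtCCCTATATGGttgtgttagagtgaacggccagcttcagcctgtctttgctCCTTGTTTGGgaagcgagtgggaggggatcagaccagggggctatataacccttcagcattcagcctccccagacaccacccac
Tpm2: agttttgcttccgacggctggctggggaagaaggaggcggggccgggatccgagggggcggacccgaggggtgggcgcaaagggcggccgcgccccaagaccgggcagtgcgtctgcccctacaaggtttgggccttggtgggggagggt
Cnn1: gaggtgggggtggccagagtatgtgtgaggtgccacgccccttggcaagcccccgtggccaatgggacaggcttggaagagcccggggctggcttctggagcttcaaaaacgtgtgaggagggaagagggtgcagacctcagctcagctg
Tpm1: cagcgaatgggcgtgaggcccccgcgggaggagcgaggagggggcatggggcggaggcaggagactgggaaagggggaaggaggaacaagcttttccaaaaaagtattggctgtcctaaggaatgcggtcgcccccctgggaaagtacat

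In the 250 bases before the start, Acta2 held 2 such matches, which begin 134 and 84 bases before the start. The other 7 promoters held none, and none of the 8 held a match with all 6 inner bases A or T. Among 33469 rat promoters of the same length, 8.08% held a match of the looser kind and 1.5% one of the strict kind. The motif was searched with its reverse complement, which has the same form. A match is a string of letters and not a bound site, and no match says only that these letters are not in this window.

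At day 7 all 5 comparable genes were lower in the injured artery, by 4.59-fold to 14.0-fold on the scaled signal. Scaled signal is the log2 processed intensity minus the 75th percentile of its array, taken here over the probes on both designs. The figure after ± is the technical SD that replicate spots give for a ratio, which leaves out the spread between animals. Over the 5257 genes that exceeded background clearly in both arteries, the median log2 ratio was -0.01, with 16.3% lower at day 7 by 2-fold or more and 16.1% higher by as much. The median over the 5 contractile genes was -2.85, and 5 of 5 were past 2-fold. Fewer smooth muscle cells and less RNA per cell cannot be told apart in RNA from a whole artery, here and in the results that follow.

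The tropomyosin Tpm2, which lies along the actin filament, had a processed signal of 3225 intensity units at day 7 and 24810 in the uninjured artery. Its log2 ratio of scaled signals was -3.80 ± 0.13, or 14.0-fold lower, and 8th lowest of 5257 genes. Tpm1, its relative, had 3463 units at day 7 and 13767 in the uninjured artery, a log2 ratio of -2.85 ± 0.13. Both tropomyosin probes were thus well above background on both arrays and dimmer at day 7 before any scaling.

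Cnn1, calponin, had 253 units at day 7 and 1174 in the uninjured artery, and its log2 ratio was -3.08 ± 0.11, or 8.43-fold lower. Tagln, the actin-bundling transgelin often called SM22, had 7601 units at day 7 and 19225 in the uninjured artery, a log2 ratio of -2.20 ± 0.13. Myl9, the light chain that Mylk phosphorylates, had 3015 units at day 7 and 7965 in the uninjured artery, a log2 ratio of -2.26 ± 0.13. Tagln and Myl9 were the least reduced of the 5 and still ranked 161st and 141st lowest of 5257 genes.

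**Figure D1:**
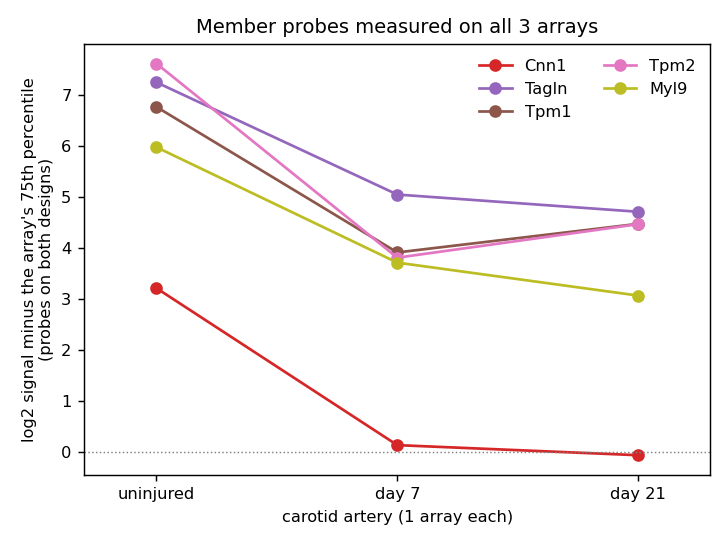
Scaled log2 signal of the 5 probes on both array designs, in the uninjured, day 7 and day 21 arteries (x axis, 1 array each), where 0 is the 75th percentile of the array over the shared probes. All 5 lines are lower at day 7 and at day 21 than in the uninjured artery, and Tpm1 and Tpm2 are the 2 that are higher at day 21 than at day 7.

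The remaining 10 probes on the day 7 array are not on the other arrays, so their day 7 signals have no comparison. Acta2, the alpha actin of vascular smooth muscle, had 20844 units. The 2 Actg2 probes had 7563 and 7024 units, the Myh11 probes 3959 and 347, the Cald1 probes 1999 and 502, and a second Tpm1 probe 997. Mylk had 1394 units on one probe, while its other probe, at 12.7 units, was not well above background.

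At day 21 all 9 comparable genes had negative log2 ratios and 8 of 9 were at least 2-fold lower in the injured artery. Here all probes of the common design could be used, and both arrays came from one scan. Over the 9422 genes measured in both arteries, the median log2 ratio was -0.20, with 13.7% lower at day 21 by 2-fold or more and 9.12% higher by as much. The 9 genes had a median of -2.57. Where a gene had several probes, the brightest one stands for it.

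Among the filament proteins, Actg2, the gamma actin best known from visceral smooth muscle, had 1424 units at day 21 and 10943 in the uninjured artery. Its log2 ratio was -4.39 ± 0.13, or 21.0-fold lower, the largest drop of the 9 and 5th lowest of all 9422 genes. Myh11, the smooth muscle myosin heavy chain, had 2014 units at day 21 and 4751 in the uninjured artery on its bright probe, a log2 ratio of -2.69 ± 0.13. Its other probe was dim, with 212 units at day 21 and 111 in the uninjured artery, and gave -0.51 ± 0.18.

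The 2 Myh11 probes thus differed by 2.17 on the log2 scale. Over the 1784 genes with several measured probes, that range had a median of 0.46 and exceeded 1.41 in 1 gene of 10. Which transcripts each probe detects, and whether a probe also binds a closely related actin, myosin or tropomyosin, was not examined, and the 2-fold reduction of Myh11 holds for its bright probe only.

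Myl9 had 3209 units at day 21 and 7965 in the uninjured artery, a log2 ratio of -2.76 ± 0.13. Mylk, the kinase that acts on it, had 82.1 units at day 21 and 68.2 in the uninjured artery on its brighter probe, a log2 ratio of -1.18 ± 0.19. The other Mylk probe had 66.6 units at day 21 and 33.6 in the uninjured artery, a log2 ratio of -0.46 ± 0.21. On these probes the ratio of the kinase was less negative than that of its substrate, and its dimmer probe did not reach 2-fold. In the uninjured artery the Mylk probes stood at 1.37 and 0.68 times the array's 75th percentile, and the Myl9 probe at 161 times. The effect of such dim signals on the Mylk ratios was not tested, so the 2 genes cannot be ranked by their reduction.

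Of the thin filament proteins, Cnn1 had 367 units at day 21 and 1174 in the uninjured artery, a log2 ratio of -3.13 ± 0.15, or 8.73-fold lower. Tagln had 10018 units at day 21 and 19225 in the uninjured artery, a log2 ratio of -2.39 ± 0.13. Cald1, caldesmon, had 577 units at day 21 and 421 in the uninjured artery, a log2 ratio of -0.99 ± 0.15. Cald1 was the only one of the 9 genes short of 2-fold, at 1.99-fold lower, while Mylk lay just past it at 2.27-fold.

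Tpm2 had 48823 units at day 21 and 106521 in the uninjured artery on its brightest probe, a log2 ratio of -2.57 ± 0.13, and its other probes gave -2.73 and -3.0. Tpm1 had 8503 units at day 21 and 13767 in the uninjured artery on its brightest probe, a log2 ratio of -2.14 ± 0.13. The other 3 Tpm1 probes gave -1.78, -1.84 and -2.53. All 7 tropomyosin probes were at least 2-fold lower, with ranges of 0.43 within Tpm2 and 0.76 within Tpm1.

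**Figure D2:**
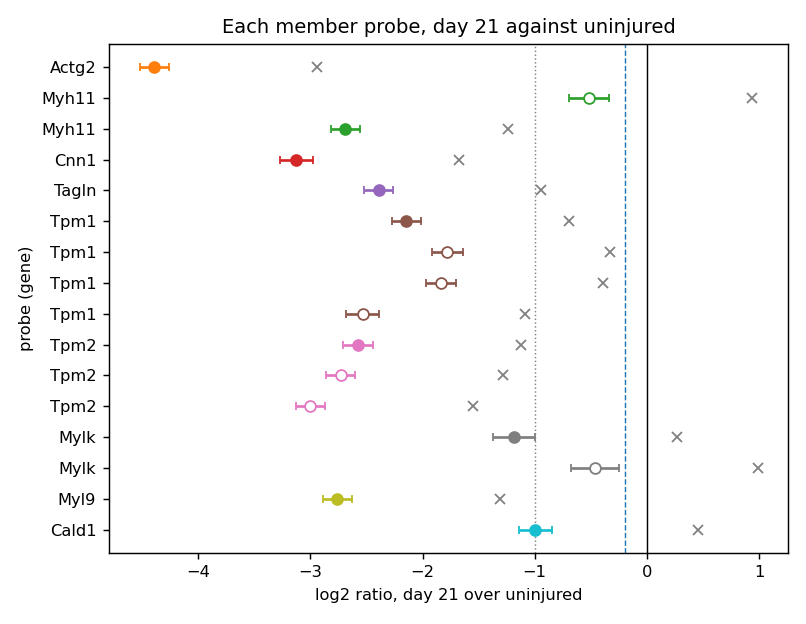
Log2 ratio of day 21 over uninjured for each of the 16 probes of these genes (x axis), with bars for the technical SD. Filled points are the brightest probe of a gene and open points its other probes, grey crosses are ratios of signals before scaling, the dotted line marks -1 and the dashed line the median of all genes. Points lie between -4.39 and -0.46, and the crosses of Cald1, both Mylk probes and the dim Myh11 probe lie above 0.

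The scaling carries part of the day 21 result. The 75th percentile of all gene probes was 135 units on the day 21 array and 49.6 on the uninjured array, so a probe with equal signals on both counts as lower. The unscaled signals of Cald1, of both Mylk probes and of the dim Myh11 probe were higher at day 21, and those of the other 12 probes were lower. Actg2 gave -2.94 and Cnn1 -1.68 as unscaled log2 ratios of day 21 over uninjured. On their brightest probes Myl9 gave -1.31, Myh11 -1.24 and Tpm2 -1.13. Tagln at -0.94 and Tpm1 at -0.70 were short of 2-fold before scaling, and Mylk gave 0.27 and Cald1 0.46.

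**Figure D3:**
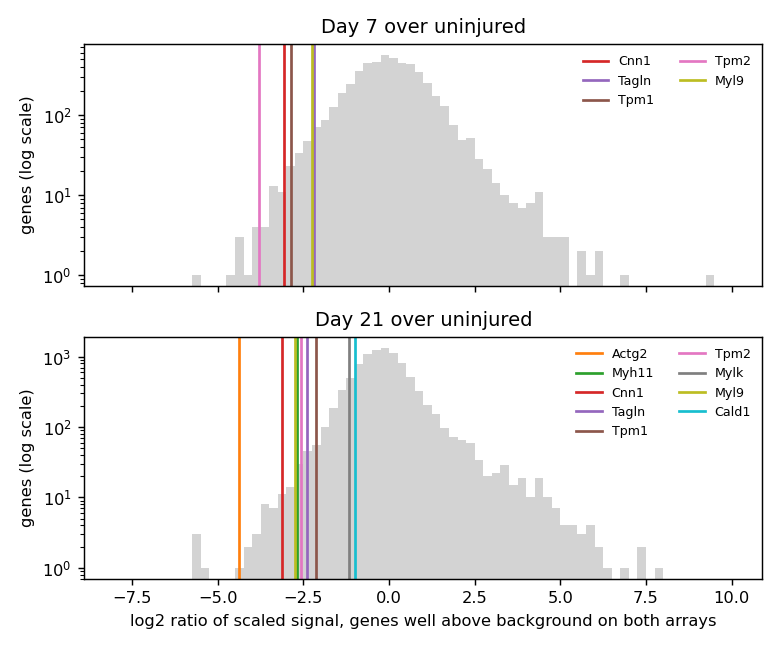
Number of genes (y axis, log scale) by log2 ratio of scaled signal (x axis) for day 7 over uninjured above and day 21 over uninjured below, for genes measured in both arteries. Coloured lines mark the member genes, which lie between -3.80 and -2.20 at day 7 and between -4.39 and -0.99 at day 21, left of the bulk of genes.

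Between the injured arteries the 5 shared genes differed less than from the uninjured one. On the shared-probe scale Tpm2 stood at 7.61 in the uninjured artery, 3.81 at day 7 and 4.46 at day 21. Tpm1 stood at 6.76, 3.91 and 4.47 in the same order, Tagln at 7.24, 5.04 and 4.71, Myl9 at 5.97, 3.71 and 3.06, and Cnn1 at 3.21, 0.13 and -0.06. On this scale both tropomyosins were higher at day 21 than at day 7 and the other 3 genes were lower, but the signs of those 3 turn under other scalings.

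Of 5650 genes measured on both injured arrays, 19.9% were lower at day 21 than at day 7 by 2-fold or more and 10.8% higher by as much, and the median log2 ratio was -0.19. None of the 5 genes passed 2-fold in either direction. Their log2 ratios of day 21 over day 7 were 0.66 ± 0.15 for Tpm2, 0.56 ± 0.15 for Tpm1, -0.20 ± 0.14 for Cnn1, -0.34 ± 0.15 for Tagln and -0.65 ± 0.15 for Myl9, with a median of -0.20. Under other scalings Cnn1, Tagln and Myl9 reached 1.17, 1.03 and 0.72, so their direction between the days is not settled. Both tropomyosins stayed above 0 under all 10 alternatives, from 0.44 to 1.93 for Tpm1 and from 0.66 to 2.03 for Tpm2. With 1 shared probe per gene, well above background, the alternatives on probe choice and dim probes could not move these values. Under 3 of the 10 alternatives 2 to 4 of the 5 genes were at least 2-fold higher at day 21 than at day 7. Of all genes, 21.6% to 57.7% were higher by as much under the same 3.

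Because scaling shifts all genes of an array together, the difference between 2 genes is freer of it. The log2 ratio of Tpm2 minus that of Myl9, a pair chosen after the values were seen, was 1.30 ± 0.21 for day 21 over day 7, and lay between 1.26 and 1.62 under the 10 alternatives. For day 7 over uninjured the same difference was -1.54 ± 0.19, between -1.80 and -1.29 under the alternatives. Alternatives that only shifted an array, chose among probes or changed a filter could not move these differences, since each gene had 1 shared probe. For day 21 over uninjured the Tpm2 minus Myl9 difference was 0.19 ± 0.18 with the brightest Tpm2 probe. It was -0.24 with the Tpm2 probe used at day 7, and ran from -0.24 to 0.61 under the alternatives. The ± values hold the spread of spots only, so with 1 artery per group these differences are a description.

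At both days at least 2-fold lower were 5 of 5 of these genes, against 329 of 5176 genes (6.36%) measured on all 3 arrays. The comparisons of day 7 and day 21 share the uninjured array, so they are not independent. The 5 genes outside the set lay nearest to the median pair of the 5, at -2.85 for day 7 and -2.91 for day 21 over uninjured on the shared-probe scale, by Euclidean distance over these 2 ratios. They were Bambi, a TGF-beta family pseudoreceptor (-2.84 and -2.81, distance 0.09), the telomerase RNA Terc (-2.76 and -2.95, distance 0.11) and triadin, Trdn (-2.78 and -2.76, distance 0.17). Nfil3, a leucine zipper factor (-2.71 and -3.04, distance 0.20), and the co-chaperone Dnajb5 (-2.83 and -3.12, distance 0.22) followed. The 5 contractile genes themselves lay further from their median pair, between 0.43 for Cnn1 and 0.98 for Tpm2.

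Other genes of smooth muscle contraction and cytoskeleton were lower as well. The counts of this and the following lists stand beside 16.3% of all genes lower and 16.1% higher at day 7, and 13.7% lower and 9.12% higher at day 21. At day 7, 9 of 10 measured genes of this list were at least 2-fold lower and 0 higher, with a median log2 ratio of -2.39. The gene of this list short of that at day 7 was Lmod1, at 0.30 ± 0.29, and it ran down to -0.92 under the alternatives. At day 21 the counts were 14 of 15 lower and 0 higher, with a median of -1.74. Under the alternatives the list medians ran from -3.61 to -2.16 at day 7 and from -2.08 to -1.25 at day 21. Des, the intermediate filament protein desmin, had 419 units at day 21 and 1443 in the uninjured artery, a log2 ratio of -3.23 ± 0.15. Pdlim3 gave -3.03 and Mustn1 -2.38 at day 21. Vinculin, Vcl, and the integrin Itga8 were at -1.31 and -1.23, and talin, Tln1, at -0.29. Under the alternatives Itga8, Vcl, Actn1, Smtn, Pdlim7 and Lmod1 ran up to -0.65, -0.68, -0.76, -0.77, -0.79 and -0.89 at day 21, short of 2-fold. At day 7 Vcl was at -2.90 and ran from -4.12 to 0.19, so its direction is not settled there.

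The non-muscle and broadly expressed relatives had no such shift in their medians. Among the non-muscle relatives, 3 of 8 were at least 2-fold lower and 2 higher at day 7, and 4 of 12 lower and 1 higher at day 21, with medians of -0.12 and -0.14. Under other scalings these medians ran from -1.34 to 0.01 at day 7 and from -0.27 to 0.37 at day 21, so they have no settled sign. The cytoplasmic actin Actb was at 0.07 ± 0.13 and Actg1 at -0.27 at day 21, while the calponin relative Cnn3 was at -1.54, the non-muscle myosin Myh10 at -1.35 and the transgelin relative Tagln2 at 1.34. At day 7 Actb was at -1.27, on a different probe from that of day 21, Cnn3 at -1.32 and Tagln2 at 1.15, which ran down to -0.07 under other scalings.

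Of the striated relatives, 2 of 8 measured at day 7 were at least 2-fold lower and 2 higher, close to the shares of all genes. At day 21, 5 of 9 were lower and 0 higher, with a median of -1.12, and another 6 of the 16 genes on the array were well above background in 1 artery only. The cardiac actin Actc1 had 101 units at day 21 and 375 in the uninjured artery (-3.34 ± 0.16), and the skeletal actin Acta1 80.4 units at day 21 and 141 in the uninjured artery (-2.26 ± 0.17). Myh3, the embryonic myosin heavy chain, was at -1.70 ± 0.37.

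In the regulation of myosin light chain phosphorylation, 5 of 12 genes were at least 2-fold lower and 1 higher at day 7, and 6 of 16 lower and 0 higher at day 21, with medians of -0.44 and -0.57. Under the alternatives these medians ran from -1.91 to -0.44 at day 7 and from -1.39 to -0.09 at day 21. Ppp1cb, the catalytic subunit of myosin phosphatase, had 95.2 units at day 21 and 1585 in the uninjured artery, a log2 ratio of -5.51 ± 0.15. Ppp1r14a, the phosphatase inhibitor CPI-17, was at -2.28 ± 0.13 at day 21 and -2.45 at day 7. Ppp1r12c, a regulatory subunit, was at -2.07 at day 21, and ran from -2.22 to -0.39 under the alternatives.

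Of the transcription factors of the smooth muscle programme, 2 of 5 were at least 2-fold lower and 0 higher at day 7, and 5 of 11 lower and 1 higher at day 21, with medians of 0.05 and -0.66. The day 7 median ran from -1.17 to 0.11 under other scalings. Of the 2 lower at day 7, Klf4 was at -2.98 ± 0.12 and ran from -4.20 to -2.73 under the alternatives. Srf, the other, was at -1.91 and ran from -3.13 to 3.23 under the alternatives, so its direction is not settled. Myocd, the coactivator myocardin, had 64.2 units at day 21 and 73.3 in the uninjured artery, a log2 ratio of -1.64 ± 0.19. Nkx2-3 was at -1.91 ± 0.39 and Prrx1 at 1.31 ± 0.18 at day 21. Under the alternatives Myocd ran up to -0.93 and Nkx2-3 up to -0.87 at day 21, short of 2-fold.

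**Figure D4:**
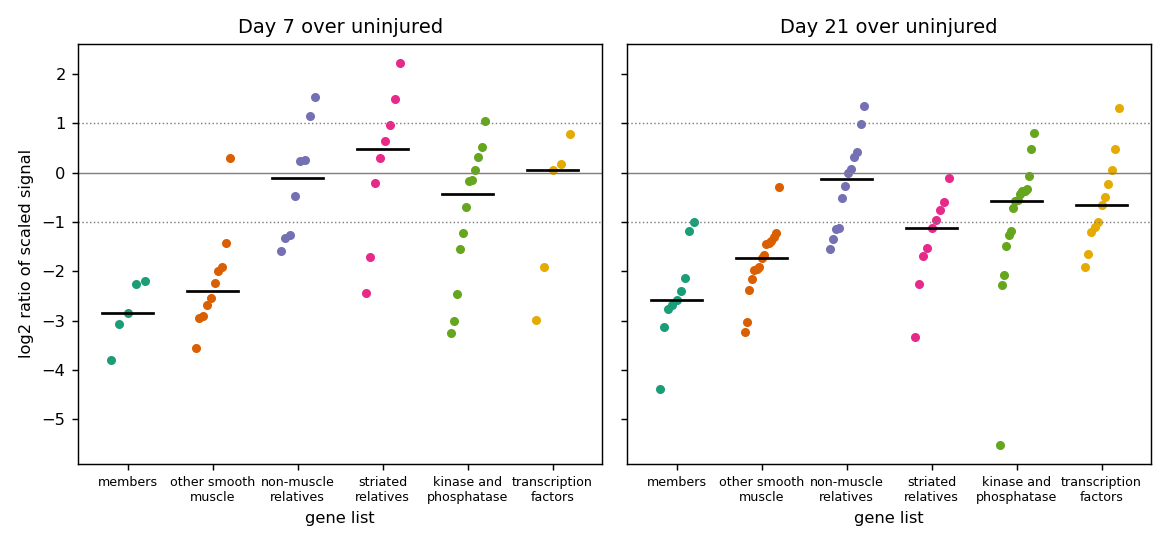
Log2 ratio of scaled signal for each measured gene (points) of the member genes and 5 other lists (x axis), for day 7 over uninjured at left and day 21 over uninjured at right. Bars are list medians and dotted lines mark 2-fold. The medians of the member genes, -2.85 and -2.57, are the lowest of the 6 at both days.

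Most measured markers of macrophages and endothelium were higher in the arteries where the contractile genes were lower. Of the macrophage markers, 11 of 11 measured at day 7 and 14 of 14 at day 21 were at least 2-fold higher, with medians of 3.21 and 4.75. Their summed scaled level, as a multiple of the array's 75th percentile, was 189 at day 7 against 14.5 in the uninjured artery, and 2695 at day 21 against 74.9 in the uninjured artery on all probes. In the uninjured artery Itgam, Itgb2 and Cd163 were not well above background. At day 21 Cd163 was not well above background either, and with no filter on dim probes it gave -0.26.

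Of the endothelial markers, 5 of 5 at day 7 and 5 of 6 at day 21 were at least 2-fold higher, with medians of 2.03 at both days. At day 7 this median fell to 0.81 under the alternative with the lowest value, and Kdr, Esam, Emcn and Nos3 went down to 0.31, 0.63, 0.70 and 0.81, short of 2-fold. Their summed scaled level was 9.62 at day 7 against 2.42 in the uninjured artery, and 26.7 at day 21 against 6.86 in the uninjured artery. In the uninjured artery Pecam1, Tie1 and Tek were not well above background. The measured endothelial marker that was not higher at day 21 was Cdh5, at -0.21, which ran from -0.28 to 0.27 under the alternatives. Of the fibroblast markers, 1 was lower and 1 higher of 5 at day 7, near the shares of all genes, and 3 lower and 2 higher of 9 at day 21. Their summed level was 336 at day 7 against 182 in the uninjured artery, of which Col1a1 alone made up 303 and 126, and without it 32.4 against 55.9. At day 21 the sum was 875 against 1604 in the uninjured artery, and without Col1a1 297 against 600.3. Skeletal muscle markers had 1 of 5 lower and 2 higher at day 7 and 5 of 9 lower at day 21, Schwann cell markers 4 of 5 higher at day 7 and 1 of 6 lower at day 21, and adipocyte markers 2 of 2 higher at day 7 and 3 of 4 at day 21. The skeletal muscle list shares 5 genes with the striated relatives. The part of any of these in the lower levels of the contractile genes was not tested.

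Processing moved the size of the reduction more than its presence. At day 7 the median of the 5 genes stayed between -4.07 and -2.43 under 10 alternatives, with 5 of 5 at least 2-fold lower under each. Set against the median of all genes under the same alternative, it lay 1.96 to 2.85 lower on the log2 scale. At day 21 the median lay between -2.91 and -1.84, or 1.82 to 2.63 below that of all genes. The count of genes at least 2-fold lower at day 21 was between 6 and 8 of 9 where all 9 were measured, since Cald1 was past the threshold under no alternative, Mylk under 4 of 8 and Myh11 under 7 of 8.

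**Figure D5:**
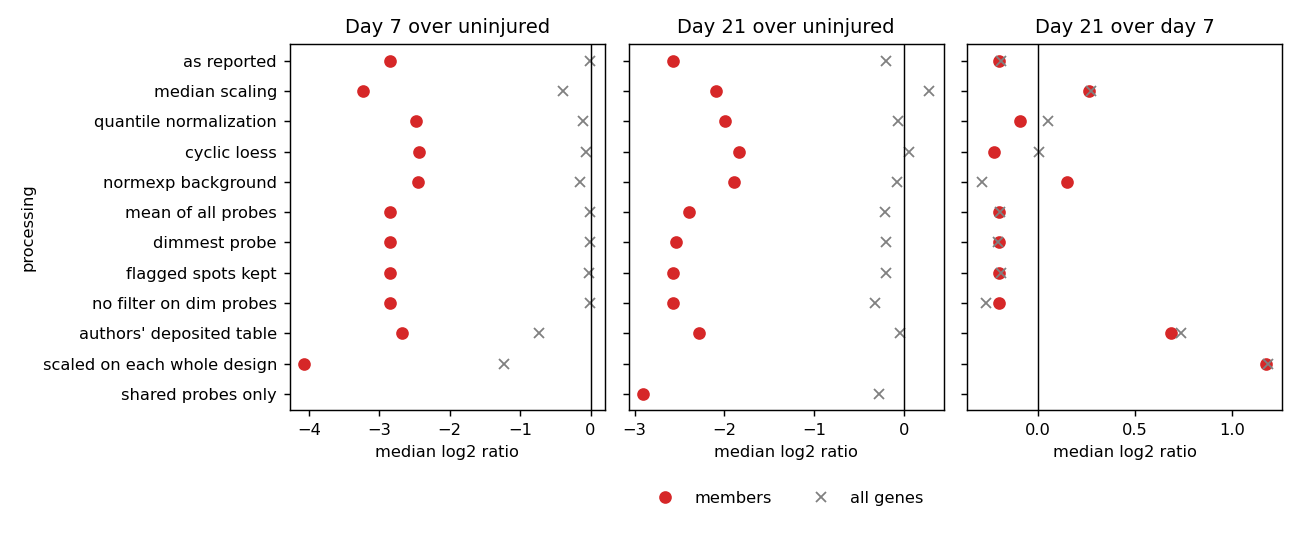
Median log2 ratio of the member genes (red) and of all genes measured (grey crosses) under each processing (y axis), for day 7 over uninjured, day 21 over uninjured and day 21 over day 7. The red points lie left of the crosses in the first and second panels under each processing, and on both sides of 0 in the last.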

How the data were processed

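Whole-artery RNA was measured on Agilent arrays with a single Cy3 dye, per the labels' protocols. Intensity values came from Agilent Feature Extraction, release 11.0.1.1 for day 7 and 10.7.3.1 for day 21 and uninjured, per the file headers, while the submitters' processing notes name 10.7.3.1. The software subtracted background and a spatial trend array by array, with no normalization across arrays, per the file headers. The deposited outlier, saturation and well-above-background flags are other values of the same files. The authors' deposited table holds 9260 rows on a log2 scale, with its normalization and centring not given in the sources used here. Of these rows 3957 are probes of the day 7 design only, so it served as an alternative on shared probes.

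Control spots and outlier-flagged spots were left out (1.46% of gene spots at day 7, 0.274% at day 21 and 0.242% uninjured). Replicate spots entered as their mean log2 value, and the array's 75th percentile was subtracted, over all probes for day 21 against uninjured (40989) and over the probes on both designs for comparisons with day 7 (10583). The raw 75th percentiles were 230.4 units at day 7, 384 at day 21 and 127 uninjured over shared probes. Gene names came from unversioned accessions looked up in RefSeq's GRCr8 table: 42.7% of the probes for day 21 against uninjured and 75.9% of the shared ones had a match. A probe counted as well above background when the flag was set on at least 50% of its unflagged spots, and a gene was represented by its brightest probe over the arrays compared. The technical SD comes from probes with at least 3 replicate spots, taken as the median over 10 bins of signal and interpolated. It covers neither dissection nor the animal, and the number of arrays, 1 per group, limits the precision.

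The genes and lists were chosen with earlier results of these data known. Genes named from a list are up to 3 with the largest and up to 3 with the smallest absolute ratio at day 21 among those measured. A part of them is given, and Srf, Klf4, Lmod1, Actn1, Smtn and Pdlim7 were added to them. Some genes that the rule selects are left out of the text. The 10 alternatives per comparison changed the scaling, the background correction, the choice of probe, the filters or the source table. Normexp used the median signal and median background with an offset of 50, because the files hold no mean signal column. Python 3.11.15, numpy 2.4.6, pandas 2.3.3, matplotlib 3.10.9, R 4.3.3 and limma 3.58.1 were used, and the computation of ratios was tested on simulated data.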

Additional observations from a re-analysis of the deposited data

Results flagged for a closer look

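Of the genes named by rule and reported here, 6 had opposite signs at the 2 days, each by over 2 technical SDs, and the difference between the days was not tested. All are outside the 10 contractile genes, and each day 7 value compares arrays of different designs.

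The log2 ratios over uninjured at day 7 and day 21 were 1.49 and -1.70 for the embryonic myosin Myh3, read from different probes at the 2 days, and 0.78 and -1.91 for the transcription factor Nkx2-3. Among cell type markers they were 2.49 and -0.79 for Actn3 of skeletal muscle, and 1.26 and -0.80 for the collagen Col1a1, again from different probes. For the Schwann cell markers they were 4.75 and -0.96 for Ngfr and 4.10 and -0.77 for Sox10. Under other processing the day 7 values of Myh3 and Nkx2-3 ran down to -0.01 and -0.44, and the day 21 value of Col1a1 up to 0.02, so these signs are not settled, while the other 3 genes kept opposite signs under each alternative run.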

How the results depend on the processing

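No paired analysis was possible because each group had 1 array, and no replicate could be left out. With no test, depth limits only probes near background. The 5 genes at day 7 were all at least 2-fold lower under every one of the 10 alternatives run. With 1 shared probe each, these 5 genes could not move under the alternatives on probe choice and dim probes. Their median of -2.85 became -3.23 with median scaling, -2.47 with quantile normalization, -2.43 with cyclic loess, -2.44 with normexp, -2.68 in the authors' deposited table and -4.07 with each whole design scaled on its own.

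At day 21 the median of -2.57 became -2.10 with median scaling, -1.99 with quantile normalization, -1.84 with cyclic loess, -1.89 with normexp, -2.39 with the mean of all probes, -2.28 in the authors' deposited table and -2.91 on shared probes. The last 2 measured 5 genes, and 5 were at least 2-fold lower.

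Between the days the median of -0.20 became 0.27 with median scaling, 0.15 with normexp, 0.69 in the authors' deposited table and 1.17 with whole-design scaling. The genes at least 2-fold higher at day 21 than at day 7 numbered 0 as reported, 2 with median scaling, 2 in the authors' deposited table and 4 with whole-design scaling. The cause was not tested.

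The background shifted too. The shares of all genes lower and higher at day 7 were 27.3% and 9.68% with median scaling, 40.5% and 10.2% in the authors' deposited table and 59.5% and 3.44% with whole-design scaling, against 16.3% and 16.1% as reported, and 9.76% and 6.43% with normexp. At day 21 they were 5.19% and 17.5% with median scaling, 8.35% and 10.5% after quantile normalization, 6.48% and 12.0% after cyclic loess, 2.82% and 8.39% with normexp, 9.34% and 12.6% in the authors' deposited table and 22.9% and 9.74% with no filter on dim probes. For day 21 over day 7 they were 11.2% and 21.6% with median scaling, 11.6% and 17.1% after quantile normalization, 11.9% and 16.0% after cyclic loess, 13.4% and 7.63% with normexp, 6.25% and 39.6% in the authors' deposited table and 2.87% and 57.7% with whole-design scaling. The median of all genes at day 7 was -1.23 with whole-design scaling and -0.73 in the authors' deposited table.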

Other observations

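The authors' deposited table also holds rows for Actg2, Myh11 and Cald1 whose probe names belong to the day 7 design and are not on the other arrays. The origin of the values in their day 21 and uninjured columns is not known from the files. In the authors' deposited table the log2 differences of day 21 minus uninjured were -3.78 for Actg2, -2.20 for Myh11 and -0.98 for Cald1. For day 7 minus uninjured they were -1.31, -1.21 and 0.15 in the authors' deposited table, for the same genes in the same order.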
